A study of Mus musculus with 6 samples.

Results

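Genes for the glycoproteins, proteoglycans and remodelling enzymes of the extracellular matrix were compared between Naa10-knockout (Naa10-KO) mice and wild types (WT) in inguinal white adipose tissue, the subcutaneous fat of the groin. A list of 40 genes was used, and each was read from 1 probe set, the one with the highest mean over the 6 arrays among those annotated to that gene only. Of the 40, 37 were measured, out of 18193 genes on the array. Spp1 and Fbn1 had no probe set under their names in the annotation used, Loxl2 shared its probe sets with a second gene, and all 3 are not analysed here. Ctgf, the connective tissue growth factor, was matched as Ccn2, its current symbol.

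All mice were males, put at 6 weeks of age on a diet with 60% of its calories as fat. After 15 weeks of it they were exposed to cold, 4 °C during 4 h. The groups were 3 WT and 3 Naa10-KO mice, with 1 Affymetrix whole-genome mouse array per animal. Naa10 is an enzyme that acetylates the N-termini of proteins, and by its title the series concerns its role in heat production by beige adipocytes. The labels give no strain, promoter, allele or cell type for the knockout, and Naa10 itself is not analysed here, so the genotype labels were not checked against the targeted transcript.

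The matrix of fat is a mesh of collagen fibres, elastic fibres and basement membranes that surrounds each adipocyte, and adhesive glycoproteins and proteoglycans link these parts and bind growth factors. Lysyl oxidases cross-link the fibres, matrix metalloproteinases cut them and tissue inhibitors of metalloproteinases (TIMPs) block the cutting. In obese fat this mesh is remodelled as adipocytes enlarge, and fibroblast-like progenitor cells make much of it.

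Values are the deposited signals on the log2 scale, and a difference is Naa10-KO minus WT on that scale with its standard error (SE) as moderated by limma. P-values were adjusted by Benjamini-Hochberg over the whole table, and a gene passed when its adjusted p was under 0.05. The spread measured is that between 3 mice of a group. Signals of different probe sets depend on their probes, so levels of different genes are not set against each other. Of 222 values of the members, 1 was under 5.85, which is the median over the probe sets of the array. In tissue that holds many cell types, fewer cells of a type and less RNA per cell cannot be told apart.

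Arrays differed in ways that bear on the members. The 3′ control probe set of Gapdh exceeded the 5′ one by 0.55 (log2) on Naa10-KO replicate 1, while on the others this gap was -0.27 to 0.01. That array held the lowest value of the 6 for 16 of the 37 members (43.2%), against 22.9% of all genes. Skeletal muscle markers were higher in Naa10-KO for 22 of 22, with groups that did not overlap for 20, and their summed linear signal was 8644 to 23740 on the WT arrays and 129300 to 167800 on the Naa10-KO arrays. Summed signals of progenitor and fibroblast markers overlapped, at 110900 to 132900 in WT and 116700 to 130600 in Naa10-KO, and so did those of white adipocyte markers, at 245700 to 310200 and 250600 to 289100. Smooth muscle and pericyte markers had sums that nearly touched without overlap, at 46150 to 51390 in WT and 28680 to 45850 in Naa10-KO. Their mean log2 levels overlapped, at 8.57 to 8.89 in WT and 8.33 to 9.03 in Naa10-KO. Of 12 such genes 3 had lower and 1 had higher non-overlapping groups, against 8.14% and 10.0% of all genes. Without Naa10-KO replicate 1, 6 of their means were lower and 6 higher. Adipoq, which encodes adiponectin, was at 15.46 to 15.81 on all 6 arrays. The part of the skeletal and smooth muscle signals and of RNA quality in the differences given here was not tested.

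No member passed the test. In limma, 0 of 37 were higher and 0 lower at an adjusted p of 0.05, where 0.0879% of all genes were higher and 0.0275% lower. At an unadjusted p under 0.05 there were 2 members (5.41%), both lower, against 9.20% of all genes in either direction (4.85% higher, 4.35% lower). Group means were lower in Naa10-KO for 20 members (54.1%, against 48.6% of all genes) and higher for 17 (51.4% of all genes). Differences had a median of -0.08, against 0.01 over all genes, and 27 of the 37 lay within 0.5 of 0 (73.0%, against 69.2%). Intervals set how far this reaches, as the 95% half-widths lay between 0.40 and 1.25 on the log2 scale.

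**Figure D1:**
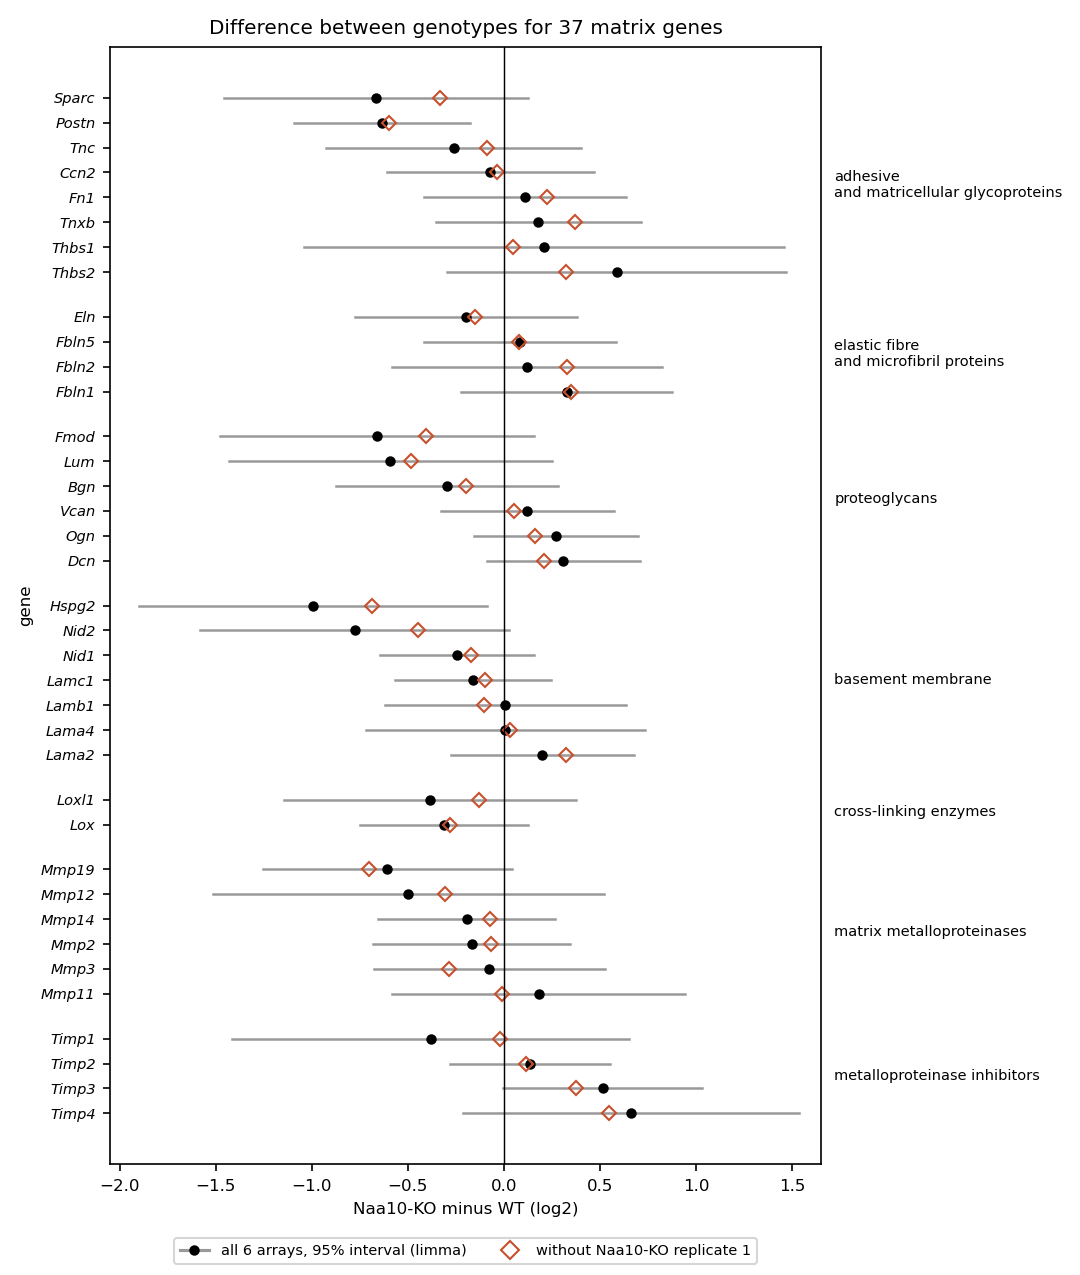
Differences between genotypes (Naa10-KO minus WT, log2, x axis) for the 37 genes (y axis), ordered within 7 role groups. Black points use all 6 arrays, with the unadjusted 95% interval from limma as a grey line, and open orange diamonds leave out Naa10-KO replicate 1. Perlecan (Hspg2) lies farthest to the left at -0.99, and the intervals of Hspg2 and Postn do not reach 0.

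Groups did not overlap for 6 members. In 4 of them, Postn, Sparc, Hspg2 and Nid2, all 3 Naa10-KO arrays lay below all 3 WT arrays (10.8% of members, against 8.14% of all genes). In Dcn and Timp3 all Naa10-KO arrays lay above (5.41%, against 10.0% of all genes). Both shares are near or under the background, so the count says nothing particular about the list. Without Naa10-KO replicate 1 there were 5 lower members (13.5%, against 11.3% of all genes) and 4 higher ones (10.8%, against 14.3%). The 6 genes were among these 9 by construction, because leaving out an array cannot make separated groups overlap. Mmp19 joined them on the lower side, and Tnxb and Lama2 on the higher side.

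The stretches just upstream of these genes are shown because their values separated the genotypes in opposite directions. RefSeq's promoter table (GRCm38.p6) held entries for 4 of the 6, other than Dcn and Nid2. Each line gives the 100 bases before the start of the gene record, 5′ to 3′ on the gene's strand, and capitals mark motif matches on either strand. The motif searched for a TATA box was TATAAA. For a GC box it was GGGCGG. For an AP-1 site it was TGANTCA. The stretches lie at chr3:54359167-54359266 (plus strand, Postn), chr11:55420081-55420180 (minus strand, Sparc), chr4:137468651-137468750 (plus strand, Hspg2) and chr10:86300312-86300411 (plus strand, Timp3).
Postn: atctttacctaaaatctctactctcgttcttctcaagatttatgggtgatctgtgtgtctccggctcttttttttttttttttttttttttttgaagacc
Sparc: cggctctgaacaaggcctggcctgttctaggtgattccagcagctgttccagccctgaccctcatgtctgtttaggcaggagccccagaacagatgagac
Hspg2: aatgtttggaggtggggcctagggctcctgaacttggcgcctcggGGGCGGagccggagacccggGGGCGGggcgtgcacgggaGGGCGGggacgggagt
Timp3: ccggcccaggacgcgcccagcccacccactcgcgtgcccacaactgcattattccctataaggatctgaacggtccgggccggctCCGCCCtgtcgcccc
The GC box stood 3 times in the Hspg2 stretch and 1 time in that of Timp3, and 22.6% of 23204 such stretches held it. TATAAA and TGANTCA were in none of the 4, against 6.27% and 2.76% of all stretches. Postn has another annotated start inside the gene record, and the 100 bases before that one held 1 TATAAA. The 3 stretches of genes with lower signals had no motif of these in common.

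**Figure D2:**
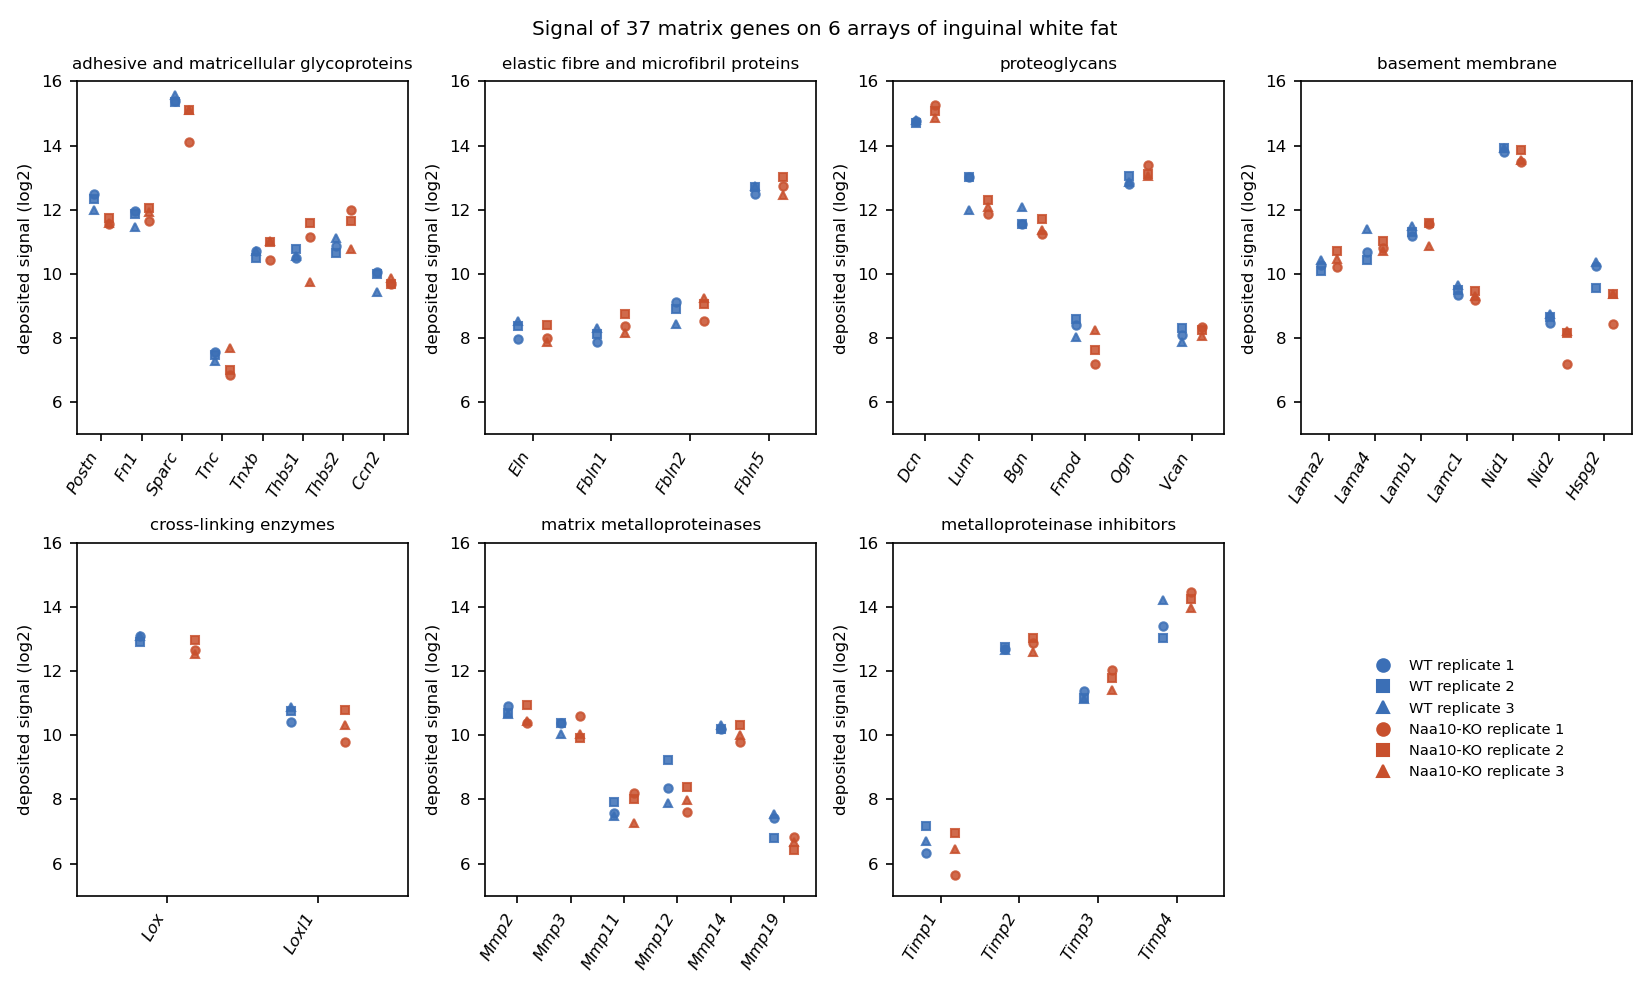
Deposited signal (log2, y axis) of the 37 genes (x axis) in 7 role groups, with 1 point per array, blue for WT and red for Naa10-KO, and a circle, square or triangle for replicate 1, 2 or 3. In most genes the colours mix, and for Sparc, Nid2 and Hspg2 the red circle, Naa10-KO replicate 1, lies below the other red points.

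Adhesive and matricellular glycoproteins carry signals between cells and fibres. Of 8 measured, 0 passed, 4 means were lower and 4 higher, with a median difference of 0.02. Postn encodes periostin, which binds collagen and integrins and is made by fibroblasts. In the order of replicates 1, 2 and 3, used throughout, the WT arrays gave 12.48, 12.33 and 11.99 and the Naa10-KO arrays 11.56, 11.75 and 11.58. The Naa10-KO arrays lay close together and all under the lowest WT array, a 1.55-fold difference (-0.63, SE 0.18, adjusted p = 0.476 in limma). It was also the smallest adjusted p among the members. Leaving out Naa10-KO replicate 1 gave -0.60 (adjusted p = 0.726).

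Sparc encodes osteonectin, a collagen-binding glycoprotein secreted by adipocytes and stromal cells. On the WT arrays its signals were 15.39, 15.37 and 15.58, and on the Naa10-KO arrays 14.12, 15.10 and 15.13. The groups did not overlap, but Naa10-KO replicate 1 was far below the other Naa10-KO arrays. The difference was -0.66 (SE 0.31, adjusted p = 0.587) with all arrays and -0.33 without that array. Another Sparc probe set with high signal differed by -0.57, and one with a WT mean of 5.92 by 0.11.

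Thbs2, a thrombospondin that binds proteases and restrains vessel growth, pointed the other way. Its WT signals were 10.89, 10.67 and 11.13, and its Naa10-KO signals 12.00, 11.64 and 10.79. Replicates 1 and 2 of Naa10-KO lay above all WT arrays, while replicate 3 lay among them (difference 0.59, SE 0.35, adjusted p = 0.642). The difference was 0.32 without Naa10-KO replicate 1 and 0.93 without replicate 3. Both other Thbs2 probe sets were higher as well, by 0.61 and 0.74. Thbs1 varied most within Naa10-KO, from 9.75 to 11.59, against 10.51 to 10.79 in WT (difference 0.21, SE 0.50). The remaining members of the group were Tnc (-0.26), the tenascin of wounds and tendon, Tnxb (0.18), a tenascin of collagen networks, Fn1 (0.11), fibronectin, and Ccn2 (-0.07).

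Elastic fibre proteins had differences between -0.20 and 0.33, with overlapping groups throughout. Of 4 measured, 0 passed, 1 mean was lower and 3 were higher (median 0.10). Eln, the elastic core protein elastin, was at 7.98, 8.39 and 8.53 in WT and at 8.01, 8.41 and 7.89 in Naa10-KO, groups that overlapped (-0.20, SE 0.23, adjusted p = 0.796). The fibulin Fbln1 was at 7.87, 8.13 and 8.31 in WT and at 8.39, 8.74 and 8.16 in Naa10-KO (0.33, SE 0.22, adjusted p = 0.671). Naa10-KO replicate 3 kept its groups from separating. Fbln2 was at 9.12, 8.92 and 8.45 in WT and at 8.54, 9.07 and 9.25 in Naa10-KO (0.12, SE 0.28), and its sign turned without WT replicate 3 (-0.069) or Naa10-KO replicate 3 (-0.026). Fbln5, which guides elastin assembly, differed by 0.08. Intervals of Eln (-0.78 to 0.38), Fbln1 (-0.22 to 0.88) and Fbln2 (-0.58 to 0.82) leave room for larger differences.

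Proteoglycans split by gene, with 3 of 6 means lower, 3 higher and 0 past the threshold (median -0.09). Most on this list are small leucine-rich proteoglycans, which coat collagen fibrils and set their width. Dcn, decorin, was at 14.78, 14.72 and 14.81 in WT and at 15.28, 15.09 and 14.88 in Naa10-KO. The WT arrays were nearly level and all lay below the lowest Naa10-KO array (0.31, SE 0.16, adjusted p = 0.602, a 1.24-fold difference). Its groups overlapped after quantile normalization and after centring of each array. A second Dcn probe set differed by 0.47, with groups that did not overlap.

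Lum, lumican, was at 13.03, 13.01 and 12.00 in WT and at 11.88, 12.30 and 12.10 in Naa10-KO. WT replicate 3 lay among the Naa10-KO arrays, and the difference was -0.59 (SE 0.33, adjusted p = 0.626), or -0.93 without that array. Fmod, fibromodulin, was at 8.42, 8.60 and 8.02 in WT and at 7.18, 7.64 and 8.24 in Naa10-KO (-0.66, SE 0.33, adjusted p = 0.595). Here Naa10-KO replicate 3 overlapped with WT, and the difference was -0.41 without Naa10-KO replicate 1. All 5 other Fmod probe sets were lower too, between -0.53 and -1.80, and the means of the 2 at these ends lay below 5.85. Groups did not overlap in those at -0.73, -0.90 and -1.80, and overlapped in those at -0.53 and -0.69. Ogn, osteoglycin, differed by 0.27 and Bgn, biglycan, by -0.30. Other Bgn probe sets differed by -0.39, with overlapping groups, and by -0.38, with groups that did not overlap. The other Ogn probe set, with a WT mean of 11.97, differed by -0.002. Vcan, the large hyaluronan-binding versican, differed by 0.12 in the probe set used. Another of its probe sets, with a WT mean of 6.73, differed by -0.83 (SE 0.27) with groups that did not overlap.

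The basement membrane, the sheet of laminin and collagen around adipocytes and vessels, held the largest difference of the list. Of 7 measured, 0 passed, 4 means were lower and 3 higher (median -0.16). Hspg2 encodes perlecan, its heparan sulfate proteoglycan. Perlecan signals were 10.26, 9.57 and 10.36 in WT and 8.46, 9.37 and 9.38 in Naa10-KO. The gap between WT replicate 2 and the upper Naa10-KO arrays was small, and Naa10-KO replicate 1 was the lowest. The 1.99-fold difference (-0.99, SE 0.36, adjusted p = 0.530) was -0.69 without that array. It rests on a probe set ending in s_at, and the only other Hspg2 probe set differed by -0.19 (SE 0.20) with overlapping groups.

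Nid2, a nidogen that bridges laminin and collagen IV, was at 8.49, 8.66 and 8.76 in WT and at 7.19, 8.15 and 8.23 in Naa10-KO. All Naa10-KO arrays were lower, the first by the most (-0.78, SE 0.32, adjusted p = 0.547). Without Naa10-KO replicate 1 the difference was -0.45. Its relative Nid1 was at 13.81, 13.92 and 13.91 in WT and at 13.50, 13.87 and 13.55 in Naa10-KO (-0.24, SE 0.16, adjusted p = 0.663), and Naa10-KO replicate 2 lay within the WT range. Another Nid1 probe set, with a WT mean of 9.53, differed by -0.72 (SE 0.34) with overlapping groups, and one with a WT mean of 5.37 by 0.19. The laminin chains were closer to 0, with Lamc1 at -0.16, Lama4 and Lamb1 both at 0.01, and Lama2, the chain typical of muscle and nerve, at 0.20. Intervals of Lama4 (-0.72 to 0.73) and Lamb1 (-0.62 to 0.63) still allow changes of that size either way.

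Lysyl oxidases, which cross-link collagen and elastin, were both lower by mean, with 0 of 2 past the threshold. Lox was at 13.10, 12.91 and 13.08 in WT and at 12.65, 12.97 and 12.52 in Naa10-KO. Its second Naa10-KO array lay within the WT range (-0.31, SE 0.17, adjusted p = 0.621). Loxl1 was at 10.40, 10.75 and 10.88 in WT and at 9.78, 10.78 and 10.32 in Naa10-KO, and its difference of -0.39 (SE 0.30, adjusted p = 0.709) became -0.13 without Naa10-KO replicate 1.

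Among the metalloproteinases, 5 of 6 means were lower, 1 was higher and 0 passed (median -0.18). Mmp19 was at 7.42, 6.79 and 7.55 in WT and at 6.84, 6.42 and 6.68 in Naa10-KO. Only Naa10-KO replicate 1 and WT replicate 2 crossed, and by little (-0.61, SE 0.26, adjusted p = 0.553). A second Mmp19 probe set differed by -0.62 with groups that did not overlap. Mmp12, the elastase of macrophages, was at 8.35, 9.22 and 7.89 in WT and at 7.61, 8.38 and 7.97 in Naa10-KO (-0.50, SE 0.40, adjusted p = 0.717), a wide spread in both groups. Its difference was -0.13 without WT replicate 2 and -0.80 without WT replicate 3. Mmp14, the membrane-bound collagenase of fat stroma, was at 10.21, 10.19 and 10.32 in WT and at 9.80, 10.33 and 10.00 in Naa10-KO (-0.19, SE 0.18, adjusted p = 0.753). Its other probe sets differed by -0.74 and -0.42, both with groups that did not overlap. Mmp2 differed by -0.17, Mmp3 by -0.08 and Mmp11 by 0.18.

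Among the inhibitors, 3 of 4 means were higher, 1 was lower and 0 passed (median 0.32). Timp3 binds to the matrix and also blocks the sheddases of the ADAM family. Its signals were 11.38, 11.15 and 11.14 in WT and 12.02, 11.79 and 11.41 in Naa10-KO. WT replicate 1 and Naa10-KO replicate 3 nearly touched (0.51, SE 0.21, adjusted p = 0.542, a 1.43-fold difference), and they overlapped when each array was centred on its median. All 3 other Timp3 probe sets were higher, by 0.12 to 0.31.

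Timp4, the inhibitor abundant in adipocytes, was at 13.40, 13.04 and 14.23 in WT and at 14.45, 14.24 and 13.97 in Naa10-KO. WT replicate 3 reached the Naa10-KO level, and the other 2 WT arrays lay below every Naa10-KO array (0.66, SE 0.35, adjusted p = 0.605). Without WT replicate 2 the difference was 0.40, and without WT replicate 3 it was 0.997. Its other probe set differed by 0.58. Timp1, induced in inflammation, was at 6.33, 7.16 and 6.71 in WT and at 5.64, 6.97 and 6.47 in Naa10-KO, and its difference of -0.38 (SE 0.41, adjusted p = 0.778) was -0.02 without Naa10-KO replicate 1. Timp2 differed by 0.14, and its other probe sets went both ways. Those with WT means of 12.47 and 6.40 differed by 0.13 and 0.20. Those with WT means of 10.30, 8.53 and 2.59 differed by -0.22, -0.61 and -1.60. The opposite signs of enzymes and inhibitors were not tested against each other.

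**Figure D3:**
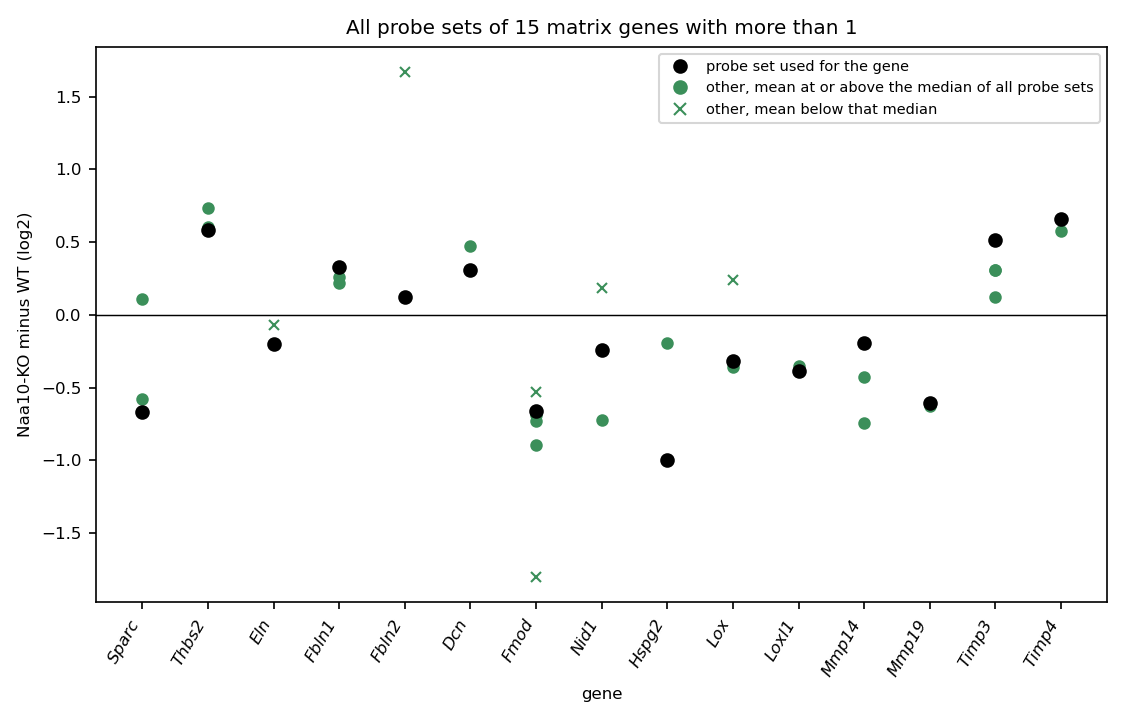
Difference (Naa10-KO minus WT, log2, y axis) of every probe set of the 15 genes described by array that have more than 1 (x axis). Black points are the probe sets used, green points are others whose mean reached the median of all probe sets, and green crosses are others below it. Probe sets of Sparc, Nid1 and Lox lie on both sides of 0, and those of each other gene lie on 1 side. Those of Hspg2 lie apart, at -0.99 and -0.19.

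In all, the 37 genes had 89 probe sets, of which 0 passed limma over 34945 probe sets and 6 (6.74%) had an unadjusted p under 0.05, against 8.20% of those 34945. Of 52 probe sets not used, 33 differed in the direction of the one used, and among the 33 whose mean reached 5.85 it was 27. Below that level 6 of 19 shared the direction.

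Naa10-KO replicate 1 was often at an extreme. It was the lowest or the highest array for 24 members (64.9%, against 43.0% of all genes). Without it, 18 of the 20 lower members and 11 of the 17 higher ones came closer to 0 or changed sign, and the sign changes were those of Lamb1 and Mmp11. Means were then lower for 22 of 37 (59.5%, against 46.3% of all genes), and higher for 15 (53.7% of all genes had higher means). The median was -0.07 against 0.03 over all genes, of which 69.7% then lay within 0.5 of 0. In that fit 0 members and 0 genes passed limma, with 1 member (2.70%) and 6.79% of all genes at an unadjusted p under 0.05 (3.50% higher, 3.29% lower).

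Collagen chains, counted as a separate list, had lower means in nearly all cases. Of 20 measured, 0 passed, 19 means were lower, 8 had non-overlapping groups, all lower (against 8.14% of all genes), and the median was -0.60, or -0.32 without Naa10-KO replicate 1, which held the lowest value in 19 of the 20. Named by the smallest p, Col5a1 differed by -0.61, Col5a2 by -0.84, Col18a1 by -0.92 and Col4a2 by -0.87. The difference between collagen chains and members was not tested.

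**Figure D4:**
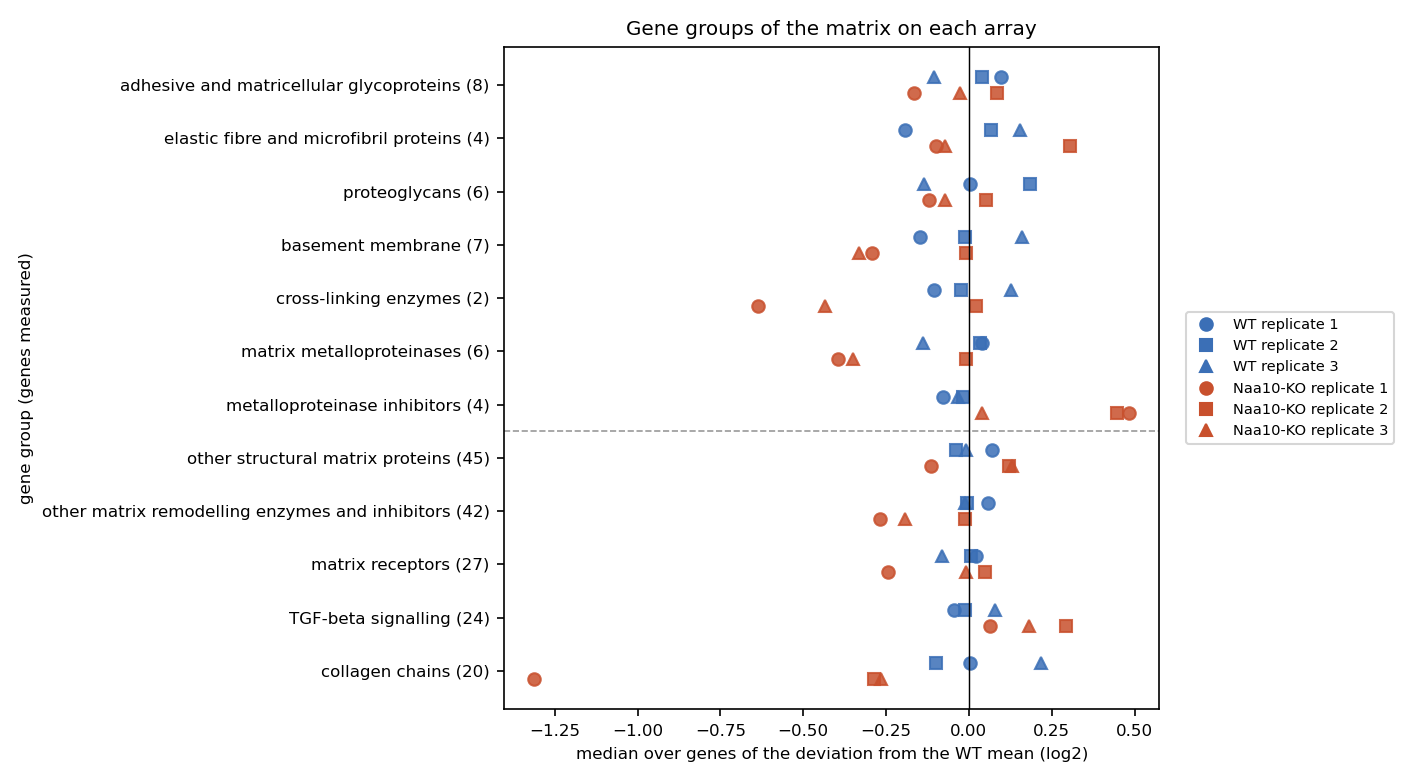
Median over genes of the deviation from the WT mean (log2, x axis) on each array, for 7 role groups above the dashed line and 5 other lists of the pathway below it (y axis, with the genes measured in parentheses). Colours are genotypes and shapes are replicates. Collagen chains on Naa10-KO replicate 1 stand farthest out, at -1.31, and the inhibitors are the role group farthest to the right.

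Other genes of the pathway were counted from 4 more lists, with the 4 genes of smallest p in each named. Among 45 other structural matrix proteins 0 passed, with 22 means higher and 23 lower (median -0.07). Ecm2, a collagen-associated protein, differed by 0.83, the laminin chain Lama5 by -0.70, Ccn3, a relative of Ccn2, by 0.46 and vitronectin, Vtn, by 1.02. Among 42 other remodelling enzymes and inhibitors 0 passed, with 16 means higher and 26 lower (median -0.15). Pcolce2, an enhancer of procollagen processing, differed by -0.82, Tgm2, a transglutaminase, by -0.38, Adam12 by -0.93 and Mmp24 by 0.63.

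Matrix receptors numbered 27, of which 0 passed, 11 means were higher and 16 lower (median -0.16). Sgca, the α-sarcoglycan of the muscle membrane, differed by 2.90 (SE 0.55, adjusted p = 0.253), and passed with the floor on low values (1.62, adjusted p = 0.00247) and with trend and robust options (adjusted p = 0.0199). All 3 WT arrays of Sgca lay below 5.85. Skeletal muscle markers were also higher in Naa10-KO over the same arrays, and their part in the Sgca difference was not tested. The integrin chains Itgb8, Itga6 and Itga10 differed by 1.39, -0.58 and -1.09. For transforming growth factor β, which drives matrix genes in fibroblasts, 24 signalling genes were measured and 0 passed, with 16 means higher and 8 lower (median 0.17). The latent binding proteins Ltbp1 and Ltbp3 differed by 0.38 and -0.56, and the receptors Tgfbr1 and Tgfbr3 by 0.36 and 0.45. Over these 4 lists and the collagens, limma called 0 genes, with 17 of 158 (10.8%) at an unadjusted p under 0.05, against 9.20% of all genes. Matrix receptors held 7 of the 17, which is 25.9% of the 27 on that list, with 5 lower and 2 higher.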

How the data were processed

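Inguinal fat RNA of 6 mice was measured on 1 array each. Values of 45101 probe sets were deposited by the authors on a log2 scale, and they show a scaling of each array to 1 level, with a linear mean of 500 on all 6 after trimming 2% at each end. Software, background correction and detection calls are not given in the sources used here. Signals were used as deposited, without a filter. Probe sets were named through a 2016 platform annotation, in which 34945 had 1 gene, 932 several and 9160 none, and older symbols were matched through RefSeq synonyms. The test, 2-sided with genotype as the only term, used lmFit and eBayes of limma (version 3.58.1, under R version 4.3.3), fitted over all 18193 genes, with 1.39 prior degrees of freedom. The number of arrays limits the precision. Steps were tested on simulated data.

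The members, role groups and lists were chosen with earlier results of these data known. Values on every array are given for the 3 genes of each role group with the smallest unadjusted p and for any other member with non-overlapping groups and signal at or above the median, and for the other lists the 4 genes with the smallest p are named. Alternatives were quantile normalization, centring, a filter and a floor on low values, other probe set rules, other variance models, the replicate number as a block and leaving out each array.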

Additional observations from a re-analysis of the deposited data

How the results depend on the processing

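In limma 0 members passed under each alternative run, and 0 to 10 had an unadjusted p under 0.05, against 2 as reported. The 10 (27.0%) came with trend and robust options, where 12.4% of all genes did, and without Naa10-KO replicate 3 there were 8 (21.6%, against 9.43%). The adjusted p of Postn ranged from 0.0773 with those options to 0.741 without WT replicate 2. Over all genes, calls numbered 16 higher and 5 lower, against 103 and 13 with the floor, 70 and 5 with the filter, 102 and 35 under trend and robust fitting, and 0 with the mean of all probe sets. The 20 members described by array kept their direction in 298 of 300 values, and the other 2 were those of Fbln2 without WT replicate 3 (-0.069) and without Naa10-KO replicate 3 (-0.026). Many of the 300 could not turn. The filter, the trend and robust options and the replicate block leave each of these differences as it was. Among the 20, the floor changed only Timp1, and leaving out x_at and s_at probe sets changed only Fmod and Hspg2. With 1 array left out, Fbln2 ranged from -0.069 to 0.33. Sparc, Thbs2, Eln, Fbln1, Lum, Fmod, Nid2, Loxl1, Mmp12, Mmp14, Timp1 and Timp4 also moved by over 1.5 times without 1 array. None of these changed sign. Hspg2 moved to -0.59 with the mean of all its probe sets and to -0.19 without its s_at probe set. With 1 array left out, members with non-overlapping groups numbered 5 to 11 on the lower side and 2 to 10 on the higher side, where fewer arrays make separation easier. The 11 (29.7%, against 13.0% of all genes) were without Naa10-KO replicate 2, the 10 (27.0%, against 16.7%) without Naa10-KO replicate 3, and without WT replicate 3 there were 7 (18.9%, against 14.6%) and 5 (13.5%, against 17.1%). Higher ones numbered 1 after quantile normalization (Timp3) and 1 after centring (Ogn), and lower ones 7 with the mean of all probe sets (18.9%, against 8.04% of all genes). The median of the members ranged from -0.17 (without Naa10-KO replicate 2, and -0.13 without WT replicate 2) to -0.07 over the arrays left out, and was -0.26 with the mean of all probe sets. Matrix receptors had 1 call with the floor and 1 with trend and robust options (Sgca both times), and other structural proteins had 0 to 1 with an array left out (Thbs4 without WT replicate 3). The cause of these shifts was not tested. Mice of the same replicate number are different animals, and deviations of same-numbered arrays correlated between -0.0306 and -0.00574 over all genes. With the replicate block 0 members and 0 genes passed. Each block holds 1 array of each genotype, so it cannot change a difference, and the 20 lower means were the same by construction.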

Other observations

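Markers of the cells that make much of the matrix were chosen for mention after their values were seen. Of 13 markers of progenitors and fibroblasts, 0 passed in limma and 8 means were lower (median -0.06). At an unadjusted p under 0.05 there was 1 of the 13, against 9.20% of all genes. Pdgfra, the receptor that marks adipose progenitors, was at 10.57, 10.64 and 10.62 in WT and at 11.42, 11.28 and 10.93 in Naa10-KO, groups that did not overlap (0.60, SE 0.18, adjusted p = 0.476). Dpt, dermatopontin, which is also among the other structural proteins, a matrix protein of fibroblasts, was at 15.21, 15.17 and 15.22 in WT and at 14.81, 14.99 and 15.03 in Naa10-KO (-0.26, SE 0.14, adjusted p = 0.604). Thus Pdgfra and Dpt separated the genotypes in opposite directions, and neither passed. Of the 13 markers, 1 had higher and 1 had lower non-overlapping groups, where 10.0% and 8.14% of all genes did. These counts say nothing particular about the markers. Markers of tendon and cartilage, tissues rich in Fmod and Tnc, had summed linear signals of 521 to 602 in WT and 379 to 695 in Naa10-KO, ranges that overlapped. Of these 10 genes, 4 lay below 5.85 on every array, so the sums say little about the amount of such tissue.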
